A study of Mus musculus with 3 samples.

Results

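Non-myelinating Schwann cell (NMSC) nuclei were selected on marker genes from single-nucleus RNA sequencing of mouse lumbar dorsal root ganglia (DRG). A barcode was kept when it held more than 1000 genes, and a kept nucleus was admitted when at least 3 unique molecular identifiers (UMIs, each standing for 1 captured transcript) fell on Scn7a, Rxrg, Lgi4, Stk32a, Rasgef1c and Col27a1, from at least 2 of them. This sum also had to reach 2 times the UMIs on 8 exclusion genes, which were Snap25 and Scn9a of neurons, Bcan, Megf10 and Cnmd of satellite glial cells (SGCs), Prx and Ncmap of myelinating Schwann cells (MSCs), and Col1a1 of fibroblasts. The rule found 760 nuclei among 19259 kept nuclei, of which 370 of 11518 came from the adult library, 260 of 5130 from aged library 1 and 130 of 2611 from aged library 2. All 3 libraries were made from the L3 to L5 ganglia of C57BL/6 mice that the labels call male, with 1 library at 3 months (adult) and 2 at 21 months (aged). The study calls the libraries biological replicates, but the number of mice behind each was not stated, and the series description gives another age for the aged mice, so the ages of the sample labels were used.

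Non-myelinating Schwann cells, also called Remak cells, descend from the neural crest like the myelinating kind. Instead of wrapping 1 large axon in myelin, each holds several small unmyelinated axons, mostly pain and temperature fibres, in separate troughs of its cytoplasm. Neuregulin on the axon acts through ErbB receptors on the Schwann cell, adhesion molecules hold the axons, and a basal lamina surrounds the bundle. After injury both kinds of Schwann cell can turn into repair cells, which re-express growth and adhesion genes. SGCs, the other glia of the ganglion, wrap the neuronal cell body and share much of the Schwann lineage programme.

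The libraries held 167664164, 95647106 and 69045987 UMIs in all barcodes (adult, aged 1 and aged 2, the order used throughout). The NMSC nuclei together held 1112393, 1240810 and 532903 UMIs, with a median of 2614, 3895 and 3741 UMIs and 1490, 2028 and 1949 genes per nucleus. No NMSC barcode was shared between libraries, and 1, 1 and 0 kept barcodes were shared by the pairs adult and aged 1, adult and aged 2, and aged 1 and aged 2. The nuclear RNA Malat1 took 7.15% of the adult NMSC UMIs and 2.02% and 2.19% of the aged. RNA resembling that of near-empty barcodes (20 to 100 UMIs), scaled on neuronal genes, amounted to 19.8%, 11.3% and 11.1% of the NMSC UMIs. Although the labels say male, Xist had 2381, 1779 and 713 UMIs in the members, against 1, 0 and 0 of the Y-linked gene Uty and 25, 16 and 5 of the Y-linked gene Ddx3y. The methods of the study name both sexes for adult mice, and for aged mice females in one place and both sexes in another. Because the adult group is 1 library, age and library cannot be told apart in any comparison below.

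Levels are given as CPM, the UMIs of a gene for each 1000000 UMIs of all members of a library, with no correction for gene length. Among the genes that admitted a nucleus, Scn7a, a sodium-sensing channel of Remak cells, stood at 744, 1350 and 989 CPM, against 307, 355 and 371 CPM in all other kept nuclei. Lgi4, a secreted Schwann cell protein, stood at 935, 836.5 and 972 CPM in members and at 55.9, 48.6 and 30.3 CPM elsewhere. The retinoid receptor gene Rxrg stood at 146, 167 and 244 CPM against 12.5, 15.5 and 16.5 CPM. The rule used these genes, so their excess over other nuclei is a description of the choice. Stk32a stood at 116, 203 and 229 CPM, Rasgef1c at 112, 316 and 304 CPM, and Col27a1 at 499.8, 482 and 612 CPM. Among the exclusion genes, Col1a1, a fibroblast collagen, was at 24.3, 132 and 171 CPM in the members, with the aged libraries above the adult. Bcan, the SGC proteoglycan brevican, went the other way, at 89.9, 29.8 and 33.8 CPM.

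**Figure D1:**
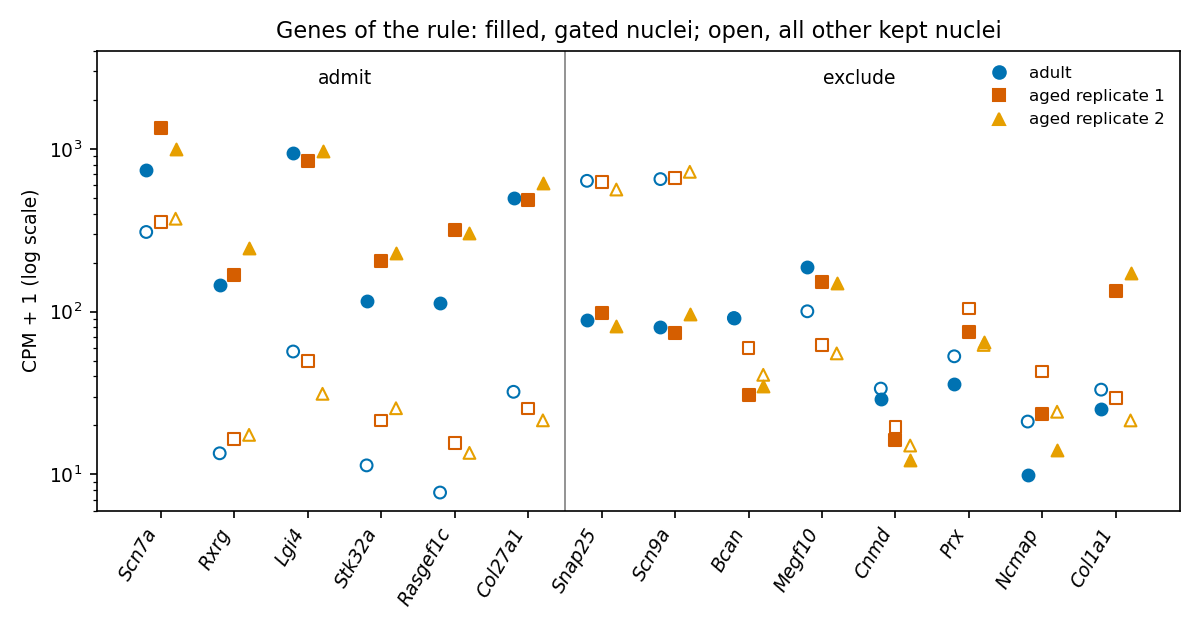
Level of each of the 14 rule genes (CPM + 1, log axis) by library, with filled points for the selected nuclei and open points for all other kept nuclei, for the 6 genes that admit a nucleus and the 8 that exclude it. Lgi4 lies between 836.5 and 972 CPM in members and between 30.3 and 55.9 CPM in other nuclei, while Ncmap lies between 8.99 and 22.6 CPM in members.

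The median UMI sum over the 6 admitting genes was 6, 12 and 11 per member. At the threshold itself, 66, 18 and 12 members held exactly 3 such UMIs. Just outside it, 72, 24 and 9 nuclei held 2 UMIs from 2 genes. In the adult library the members with 3 UMIs had Cdh19, a cadherin of immature and non-myelinating Schwann cells, at 1935 CPM and Cadm2, an axon-contact molecule, at 397 CPM. The adult members with 4 or more had these at 3572 and 1468 CPM, and the adult nuclei just outside at 1430.3 and 549.7 CPM. In the adult library the members nearest the threshold were thus nearer in these genes to the nuclei left out than to the other members. In aged library 1 they were nearer to the other members in Cdh19, at 2635 CPM against 3793 CPM in the other members and 403 CPM just outside. In Cadm2 (747 CPM against 2527 and 175 CPM) they were nearer there to the nuclei left out. The same held in aged library 2 for Cdh19 (1127 CPM against 4550 and 879 CPM) and Cadm2 (175 CPM against 2588 and 48.8 CPM). A further 2019, 1224 and 689 nuclei met the admitting part of the rule and were kept out by exclusion genes, with a median of 11518, 13708 and 23556 UMIs.

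Whether the members were Remak cells was checked on markers outside the rule. Sox10, the transcription factor of the Schwann and satellite lineage, was at 345, 299 and 342 CPM. In the adult library it did not part the members from the other glia, since at 1000 UMIs per nucleus the adult SGC and MSC gates held 334 and 342 CPM. At that depth the aged SGC gates held 217 and 213 CPM and the aged MSC gates 302 and 294 CPM. The aged members, with or without a Scn7a UMI, held 271 to 362 CPM. Cdh19 was at 3335, 3746 and 4293 CPM, 14.97 times its mean in all other kept nuclei and 2.27 times its mean in the nearest glial gate. The 26 Remak and axon adhesion genes summed to 29000.5, 28734.5 and 28849.5 CPM, about as in the SGC gate (31254, 28685 and 29794 CPM) and above the MSC gate (6794, 7507 and 7289 CPM). Summed over 13 neuronal markers, members held 3021, 2448 and 2220 CPM, against 14969.6, 19852 and 18535.5 CPM in near-empty barcodes. The members held more than the SGC gate (2080, 1546 and 992 CPM) and the MSC gate (2974, 2106 and 1761 CPM) in every library. The 10 immune markers summed to 124, 114 and 69.4 CPM in members, and the 7 fibroblast markers to 435, 883 and 812.5 CPM. The fibroblast sum was higher in both aged libraries than in the adult, although 3 of the 6 tested fibroblast markers were lower, and the neuronal and immune sums were lower.

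The members were not uniform. A Scn7a UMI was present in 191, 207 and 94 members, that is in 51.6%, 79.6% and 72.3% of them (exact 95% intervals 46.4 to 56.8, 74.2 to 84.3 and 63.8 to 79.8, counting error only). In all other kept nuclei, neurons included, the shares were 38.7%, 52.6% and 54.1%. Such shares depend on depth, so the rest of this comparison used members thinned to 1000 UMIs each, the depth at which every member could be kept. Adult members with Scn7a had Ank3, the scaffold ankyrin-G, at 3251 CPM, against 659 CPM in adult members without it. Cadm2 was at 2293 against 374 CPM. Adgrb3, an adhesion receptor at 4978 CPM in nuclei gated as SGC, was at 2497 CPM in adult members with Scn7a and 4782 CPM in those without. Cdh19 separated the 2 sets of adult members little, at 3911 and 3441 CPM, and both were above the 1359 CPM of the SGC gate. Bcan was at 57.6 CPM with Scn7a, 134 CPM without, and 623 CPM in the SGC gate. Of other satellite glia genes, Fabp7 (194 and 179 CPM) and Megf10 (178 and 184 CPM) differed little between adult members with and without Scn7a. Kcnj10 was at 78.5 and 112 CPM, against 202 CPM in the SGC gate. The SGC gate was selected on Bcan, Megf10, Fabp7 and Kcnj10, so its high levels of them describe that choice. Bcan and Megf10 are also exclusion genes of the rule, which limits them in members. In both aged libraries Fabp7 and Megf10 were higher without Scn7a, while Kcnj10 went both ways, but these levels rest on small counts. In aged library 2, Fabp7 was found in 2.13% of the 94 members with Scn7a and in 5.56% of the 36 without.

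The adult members without Scn7a thus had the Adgrb3 level of the SGC gate and the Cdh19 level of the other members. The aged libraries held fewer such nuclei. In aged library 1, Adgrb3 was at 976 CPM with Scn7a and 2509 CPM without, and Ank3 at 3145 and 1113 CPM. In aged library 2 these were 1043 and 1861 CPM for Adgrb3, and 3862 and 1944 CPM for Ank3. Summed over the 6 genes of the SGC gate (Bcan, Megf10, Cnmd, Fabp7, Kcnj10 and Kcnj3), members held 637, 364 and 306 CPM, but Bcan, Megf10 and Cnmd are exclusion genes of the rule. The 10 satellite glia genes outside the rule summed to 1615, 1476 and 1139 CPM. As the share of members with Scn7a differed between the libraries, at unequal depth, counts are also given for members with a Scn7a UMI only, a restriction added after the data were seen.

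**Figure D2:**
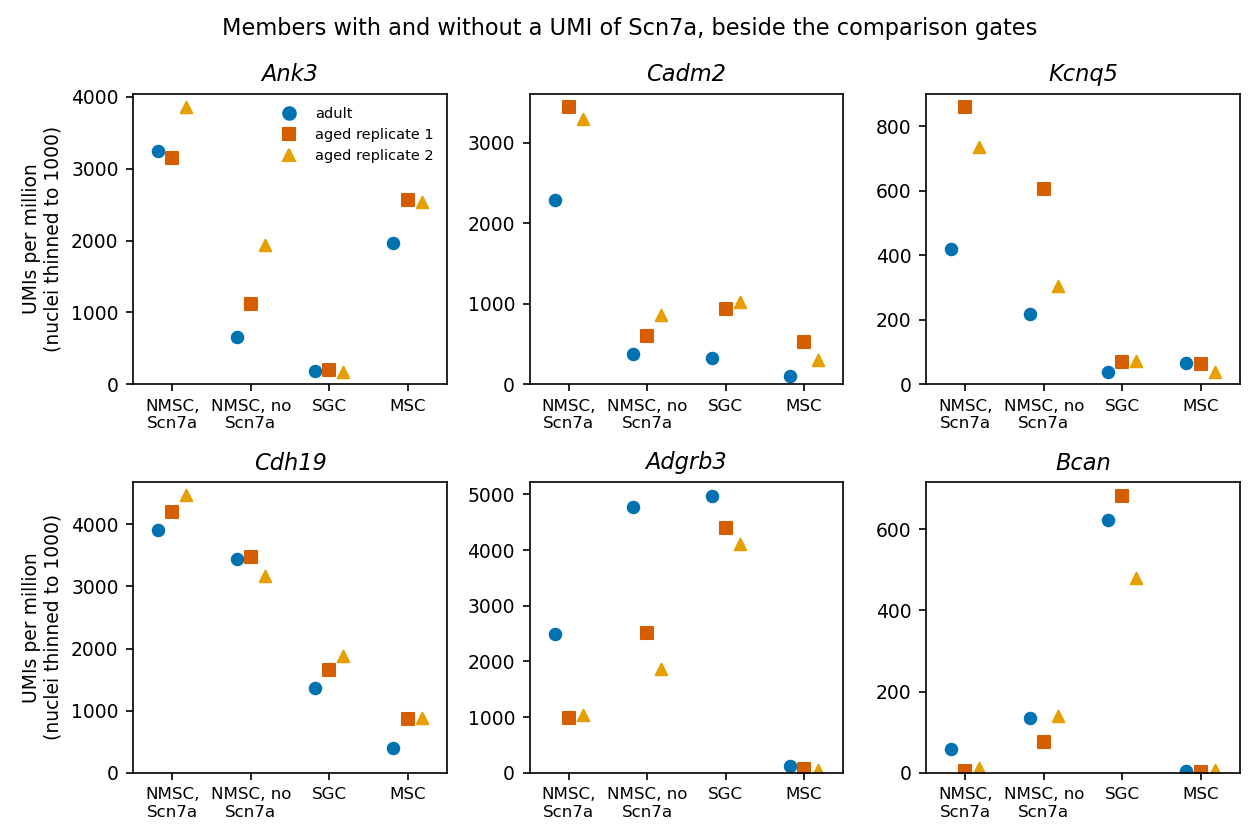
Levels of 6 genes in nuclei thinned to 1000 UMIs (CPM, linear axes from 0) in members with and without a Scn7a UMI and in nuclei gated as SGC or MSC, 1 point per library. In the adult library Adgrb3 is at 4782 CPM in members without Scn7a and 4978 CPM in the SGC gate, and Ank3 is at 659 CPM against 3251 CPM in members with Scn7a.

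The genes that set the members apart from the other glia were ranked by the mean level in NMSC over the higher of the mean levels in the SGC and MSC gates, as a description with no test. The list was led by 2310002F09Rik (25.1 times), the bile acid receptor gene Nr1h4 (21.3 times), Kcnq5 (11.1 times), Adam11 (10.4 times) and Pappa (10.1 times). Kcnq5, a subunit of the M-type potassium channel, was at 410, 687.5 and 751 CPM. These ratios pool 1 adult and 2 aged libraries. The first gene, 2310002F09Rik, was at 14.4, 144 and 143 CPM in NMSC, against 4.35 CPM in the adult SGC gate. Nr1h4 was at 0.899, 63.7 and 93.8 CPM, and its adult level was below the 1.68 CPM of the adult SGC gate. Tmem196, 4930554G24Rik, Ltbp1 (a binding protein of latent TGF-beta), Atp8b1 and Fam78b followed at 9.14 to 6.95 times. Each of these 10 genes was higher in both aged libraries than in the adult, as with Tmem196 at 11.7, 74.95 and 114 CPM, but the choice favoured this. The order needed a mean of 50 CPM over 1 adult and 2 aged libraries, which a gene low in the adult could reach through the aged alone. Of 4469 genes with 50 CPM or more, 142 were over 2 times higher in NMSC than in both other glial gates.

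Against all other kept nuclei the order began with 4930554G24Rik (27.0 times), Nr1h4 (21.2 times), Gm13403 (15.7 times) and Cdh19 (14.97 times). Gm10863, the complement gene C4b, Shpk, the growth factor receptor gene Met, Gm2164 and the matrix gene Tnc followed at 13.9 to 12.3 times. Kcnq5, Adam11, Pappa and Ltbp1 were in the first of these orders alone, and Cdh19, C4b and Met in the second alone.

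Variation between members within a library was measured by the Fano factor (variance over mean) of counts thinned to 1000 UMIs, where counting error alone gives about 1. The median gene had 1.125, 1.126 and 1.136. Taking each gene's lowest value over the 3 libraries, Cadm2 came first at 4.54, followed by D130009I18Rik (4.19), the GABA-B receptor accessory gene Kctd16 (3.98) and Csmd1 (3.86). Sned1, Pcdh9, Cntnap2, Camk1d, Adgrb3 and the microtubule gene Map1b came next at 3.31 to 3.08. Cadm2 and Adgrb3, which parted members with and without Scn7a, were thus among these 10 genes.

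NMSC made up 3.21% of kept nuclei in the adult library (exact 95% interval 2.90 to 3.55, counting error only), 5.07% (4.48 to 5.70) in aged library 1 and 4.98% (4.18 to 5.88) in aged library 2. The aged mean was 5.02% ± 0.0631 (SD, n = 2), 1.56 times the adult share. Both aged libraries lay above the adult, and the exact permutation test (two-sided, 1 against 2 libraries) gave p = 0.333, the smallest p this design allows. Depth moved with the share, with more UMIs per nucleus in the aged libraries, and its part in the difference was not tested beyond the values that follow. Among nuclei of 1000 to 2000 UMIs the shares were 3.38%, 4.43% and 4.80%, and among nuclei of 2000 to 3000 UMIs, the range with the most adult members, 5.74%, 4.91% and 6.13%, with the aged libraries on both sides of the adult. They were 3.18%, 8.60% and 10.9% among nuclei of 3000 to 5000 UMIs, and 0.818%, 3.69% and 2.17% above that. With the rule applied to nuclei thinned to 1000 UMIs the ratio was 1.84, and for members with a Scn7a UMI it was 2.30. Counted among nuclei of all 3 glial gates, NMSC made up 12.6%, 26.2% and 29.95%, with both aged libraries above the adult. Among nuclei of the NMSC and MSC gates alone, NMSC made up 40.3% in the adult, 33.5% in aged library 1 and 42.35% in aged library 2, so by that measure the aged libraries lay on both sides of the adult.

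To ask how NMSC differed with age, the UMIs of all members were summed per library and compared with the edgeR quasi-likelihood test. Its p-values measure only the spread between these libraries, with 1 residual degree of freedom. In what follows a gene rose or fell when its Benjamini-Hochberg adjusted p in this test was under 0.05, and every log2 fold change is aged over adult, with its standard error (SE) for the main genes. Of 12147 genes tested, 847 passed, 351 higher in the aged libraries (2.89%) and 496 lower (4.08%), and the median over all tested genes was 0.01. All 847 kept their direction with aged library 1 alone, and 844 did so with aged library 2 alone. For a called gene, aged libraries on the same side of the adult therefore add little to the call. With members that held a Scn7a UMI, 596 genes passed, 477 of them among the 847, and all 831 of the 847 that could still be tested kept their direction. DESeq2's Wald test called 108 genes (Benjamini-Hochberg adjusted).

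**Figure D3:**
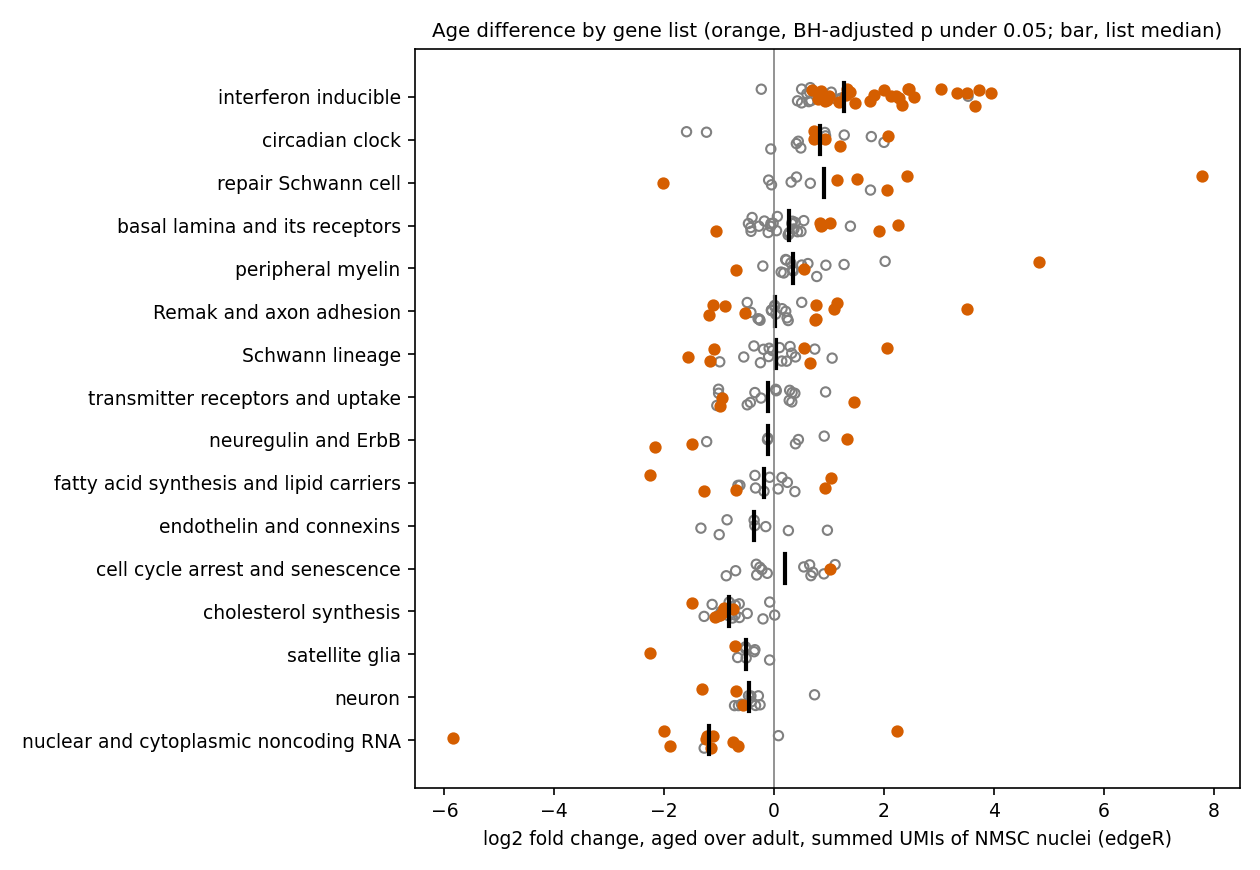
Log2 fold change (aged over adult) of each tested gene in NMSC by gene list, 1 point per gene, with orange points for genes that passed the edgeR test, open grey points for the rest and a bar at each list's median. The 42 interferon-inducible genes have a median of 1.27 and the 22 cholesterol synthesis genes a median of -0.82, while the median over all tested genes is 0.01.

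The largest rises with age were genes close to absent from adult NMSC, but the choice favoured this. They were ranked by fold change and needed 50 UMIs over the 3 libraries, which the aged libraries alone could supply. Btc, the EGF-family ligand betacellulin (GRCm38 chr5:91357261-91402994, minus strand), had 0, 38 and 15 UMIs, that is 0, 30.6 and 28.1 CPM. Both aged libraries lay above the adult, and the aged mean level was at least 10.9 times higher against a floor of 3 counts in the adult library (adjusted p = 9.94e-07, edgeR). The aged UMIs came from 24 and 10 nuclei, with at most 4 and 6 in 1 nucleus. Nr1h4 (chr10:89454234-89533585, minus strand) had 1, 79 and 50 UMIs, and the ratio of the aged to the adult level was 80.9 (exact 95% counting interval 14.3 to 3219.96). Its log2 fold change was 6.09 (SE 0.71, edgeR adjusted p = 5.89e-15), and its aged UMIs came from 30 and 19 nuclei.

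Gldn, which encodes gliomedin, a Schwann cell protein that clusters sodium channels at nodes (chr9:54286486-54341786, plus strand), was at 2.70, 76.6 and 101 CPM. Its 3, 95 and 54 UMIs gave a ratio of 31.1 (10.5 to 153) and a log2 fold change of 4.82 (SE 0.56, edgeR adjusted p = 7.75e-15). Both aged libraries lay far above the adult. The MSC gate, where Gldn is a resident gene, held 379.9, 701 and 621 CPM. The 6 genes of the MSC gate summed to 105, 211 and 169 CPM in the members, where Prx and Ncmap are exclusion genes of the rule, against 4705, 4909.9 and 5051 CPM in the MSC gate, and the part of MSC RNA in the Gldn result was not tested. Gldn overlaps Gldnos on the opposite strand, and whether counting used the strand was not stated. Sult5a1, a sulfotransferase gene, was at 1.80, 33.8 and 33.8 CPM (ratio 18.8). Cxcl12, a chemokine gene, was at 1.80, 20.1 and 50.7 CPM (ratio 16.3), and 14 of its 27 UMIs in aged library 2 came from 1 nucleus.

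In other large rises too 1 nucleus carried much of the count. Tnfaip2, a TNF-induced gene, was at 0.899, 74.1 and 39.4 CPM, with 40 of its 92 UMIs in aged library 1 from 1 nucleus, and it overlaps Gm40578 on the opposite strand. Lyz2, the lysozyme of macrophages, was at 2.70, 87.0 and 45.0 CPM, with 56 of 108 UMIs in aged library 1 from 1 nucleus. Near-empty barcodes held Lyz2 at 25.3, 94.8 and 109.6 CPM, so its levels in the members were at or below those of free RNA in every library. With free RNA subtracted Lyz2 still passed (edgeR adjusted p = 1.74e-11). Its log2 fold change was then 8.68 against 4.50 before, as few adult UMIs were there to subtract from. This pass is therefore no measure of the part of free RNA, which was not tested. With members thinned to 1000 UMIs Lyz2 did not pass (2.51, edgeR adjusted p = 0.565).

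The largest falls were mostly noncoding transcripts and genes of little known role in glia. Bc1, a short noncoding RNA best known from neuronal dendrites (chr7:144914470-144914637, plus strand), was at 326, 8.87 and 0 CPM, from 363, 11 and 0 UMIs. The adult level was 52.6 times the aged (29.1 to 106), with a log2 fold change of -5.85 (SE 0.33, edgeR adjusted p = 4.57e-64). DESeq2's Wald test did not call Bc1 (log2 fold change -6.30, adjusted p = 0.986). Bc1 was as high in the adult SGC gate (349.997 CPM against 3.501 and 0) and MSC gate (405 CPM against 4.44 and 4.76), and in near-empty barcodes (1283 CPM against 23.3 and 16.3). The fall was therefore seen in every gate and in free RNA of these libraries. Gm48594 (186, 7.25 and 7.51 CPM), Gm45397 (279.6, 29.8 and 22.5 CPM) and Tbc1d22b (233, 28.2 and 28.1 CPM) fell by 4.78, 3.49 and 3.17 on the log2 scale. Their log2 fold changes were -4.96, -3.63 and -3.26 in the SGC gate and -4.81, -3.12 and -2.98 in the MSC gate.

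Spint2, a protease inhibitor gene, was at 103, 17.7 and 5.63 CPM, with 37 of its 115 adult UMIs from 1 nucleus. 6330411D24Rik was at 128, 12.9 and 22.5 CPM, with 102 of 142 adult UMIs from 1 nucleus. Asic3, a proton-gated channel of sensory neurons, was at 43.2, 7.25 and 3.75 CPM, while near-empty barcodes held 144, 104 and 90.2 CPM. Gm42439 was at 36.9, 5.64 and 5.63 CPM, and with members that held a Scn7a UMI its log2 fold change was -2.39 (edgeR adjusted p = 0.333) against -2.81.

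Interferon-inducible genes rose with age. Interferons act through cell surface receptors to switch on genes for pathogen defence, including guanylate-binding proteins (Gbp), immunity-related GTPases (Irgm, Tgtp) and antigen presentation (Tap1, B2m). Of 42 tested genes, 27 rose, none fell, and the median log2 fold change was 1.27 against 0.01 over all tested genes. Summed, the 43 listed genes stood at 1458 CPM in the adult and 4439.8 and 3121 CPM in the aged libraries. With members that held a Scn7a UMI, 16 of 40 rose and none fell, and with DESeq2 5 rose.

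Gbp2 was at 16.2, 185 and 95.7 CPM, from 15, 56 and 24 nuclei. The aged libraries did not overlap the adult, and the log2 fold change was 3.04 (SE 0.36, edgeR adjusted p = 7.75e-15). Gbp4 was at 4.49, 95.9 and 16.9 CPM and Gbp9 at 2.70, 51.6 and 41.3 CPM, but the annotations of both overlap on the same strand, so their shares of the reads are uncertain. Tgtp2 was at 3.60, 72.5 and 26.3 CPM, with a near-identical copy in Tgtp1. Irgm1 was at 8.09, 64.5 and 33.8 CPM (log2 fold change 2.54), and Irgm2, which overlaps Igtp, at 55.7, 260.3 and 158 CPM (1.81). Aged library 1 was above aged library 2 in all 6 of these genes, and both were above the adult.

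Further along the pathway, Nlrc5, the activator of MHC class I genes, was at 31.5, 178 and 137 CPM (2.21). Tap1, the peptide transporter of antigen presentation, was at 11.7, 62.1 and 35.7 CPM (2.00). B2m, the light chain of MHC class I, was at 179, 442 and 285 CPM (0.92), and did not pass with members that held a Scn7a UMI (0.63, edgeR adjusted p = 0.13).

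The promoters of interferon genes often hold the interferon-stimulated response element, whose core was searched here as GAAANNGAAA on either strand. RefSeq promoters of GRCm38.p6, from 250 bases before to 50 after the start of the gene, were available for 32 of the 42 tested genes, and 18 of these held the motif. Over all 32851 tabulated promoters, 3.44% held it, and over the 9476 tested genes with a promoter 3.78%. Of the 27 genes that rose, 18 had a promoter in the table and 10 of these held the motif, about the same share as 18 of 32. The motif thus did not set the genes that rose apart from the rest of the list. As the list holds known interferon-inducible genes, an excess over all promoters comes with that choice. A match describes the letters only and does not show that a factor bound there. The promoters of 5 genes that rose are shown because they hold the motif, with its letters in capitals: Gbp2 (chr3:142620413-142620712, plus strand), Gbp3 (chr3:142559794-142560093, plus strand), Irgm1 (chr11:48871371-48871670, minus strand), Irgm2 (chr11:58214727-58215026, plus strand) and Ifit3 (chr19:34583279-34583578, plus strand).
Gbp2: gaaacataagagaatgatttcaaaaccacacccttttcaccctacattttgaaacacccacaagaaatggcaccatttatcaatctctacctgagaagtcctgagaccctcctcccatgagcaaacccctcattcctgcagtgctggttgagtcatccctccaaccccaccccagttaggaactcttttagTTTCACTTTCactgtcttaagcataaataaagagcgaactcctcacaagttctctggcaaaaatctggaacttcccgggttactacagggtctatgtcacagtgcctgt
Gbp3: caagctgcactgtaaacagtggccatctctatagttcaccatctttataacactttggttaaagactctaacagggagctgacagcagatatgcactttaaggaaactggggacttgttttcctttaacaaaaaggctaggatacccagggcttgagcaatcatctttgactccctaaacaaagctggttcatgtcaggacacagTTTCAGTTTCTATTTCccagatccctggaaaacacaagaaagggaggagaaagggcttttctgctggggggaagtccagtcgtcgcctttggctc
Irgm1: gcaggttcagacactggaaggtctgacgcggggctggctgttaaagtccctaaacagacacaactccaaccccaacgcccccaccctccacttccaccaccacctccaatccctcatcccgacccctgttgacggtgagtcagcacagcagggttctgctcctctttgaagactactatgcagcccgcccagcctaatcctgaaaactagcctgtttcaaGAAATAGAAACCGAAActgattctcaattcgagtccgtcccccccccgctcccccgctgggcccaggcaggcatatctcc
Irgm2: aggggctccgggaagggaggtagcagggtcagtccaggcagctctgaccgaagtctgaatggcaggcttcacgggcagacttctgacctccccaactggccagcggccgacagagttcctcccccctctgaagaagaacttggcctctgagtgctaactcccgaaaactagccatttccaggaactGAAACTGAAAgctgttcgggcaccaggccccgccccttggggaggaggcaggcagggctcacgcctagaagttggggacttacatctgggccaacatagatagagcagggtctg
Ifit3: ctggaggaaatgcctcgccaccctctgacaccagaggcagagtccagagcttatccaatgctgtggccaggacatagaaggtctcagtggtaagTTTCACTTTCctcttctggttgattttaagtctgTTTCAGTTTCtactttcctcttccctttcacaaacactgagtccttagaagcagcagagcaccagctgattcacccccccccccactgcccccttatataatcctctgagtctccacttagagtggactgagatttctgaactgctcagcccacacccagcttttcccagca
The match begins 59 bases before the start site in Gbp2 and 64 before it in Irgm2. In Gbp3 it begins at -45 and again at -39, and in Irgm1 at -30 and -24, so that both pairs overlap. In Ifit3 the matches lie farther out, at -156 and -122. Gbp3, which holds a pair, was at 25.2, 77.4 and 58.2 CPM (log2 fold change 1.33), and Ifit3, an interferon-induced RNA-binding protein gene, at 8.09, 57.2 and 26.3 CPM (2.33). Ifit3 did not pass with members that held a Scn7a UMI (1.51, edgeR adjusted p = 0.0742).

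**Figure D4:**
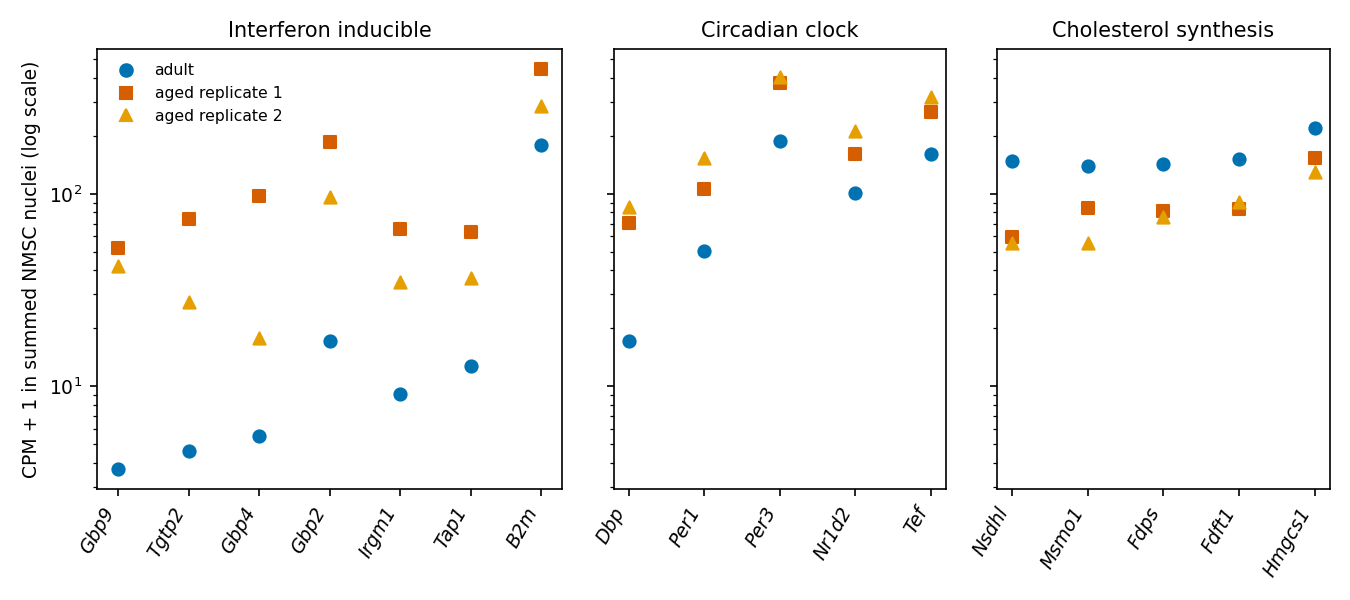
Level in NMSC (CPM + 1, log axis) of named interferon-inducible, circadian clock and cholesterol synthesis genes, 1 point per library. Gbp2 rises from 16.2 CPM in the adult to 185 and 95.7 CPM in the aged libraries, and Nsdhl falls from 147 CPM to 58.8 and 54.4 CPM.

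Genes of the circadian clock rose as well, with 5 of 16 tested genes higher, none lower and a median log2 fold change of 0.83. Dbp, a transcription factor at the output of the clock, was at 16.2, 69.3 and 84.4 CPM (log2 fold change 2.08, SE 0.40, edgeR adjusted p = 1.83e-05). Per1 and Per3, period genes of the repressor arm, were at 49.4, 105 and 152 CPM and at 187, 376 and 403 CPM, with log2 fold changes of 1.20 and 0.92. Tef was at 159, 266 and 319 CPM, and Nr1d2 at 99.8, 160.4 and 210.2 CPM (both 0.73). Both aged libraries lay above the adult for all 5 genes. Arntl, which encodes the activator BMAL1, was at 33.3, 13.7 and 18.8 CPM (-1.23), with both aged libraries below the adult, but did not pass (edgeR adjusted p = 0.0999). With members that held a Scn7a UMI, 7 of 15 clock genes rose, and with DESeq2 none did, where 11 of 16 were higher at an unadjusted edgeR p under 0.05. The time of day of collection was not stated, and its part in this result was not tested.

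Genes of cholesterol synthesis fell, with 6 of 22 lower, none higher and a median log2 fold change of -0.82. Nsdhl, a late enzyme of the pathway, was at 147, 58.8 and 54.4 CPM (log2 fold change -1.499, SE 0.27, edgeR adjusted p = 3.05e-06). Msmo1, which removes methyl groups from sterols, was at 138, 83.8 and 54.4 CPM (-1.07), and Fdps, which makes farnesyl diphosphate, at 142, 80.6 and 75.1 CPM (-0.99). Fdft1, which makes squalene, and Hmgcs1, an early enzyme, had log2 fold changes of -0.95 and -0.76. In each of these 5 genes both aged libraries lay below the adult. With members that held a Scn7a UMI only Nsdhl and Hmgcs1 fell (edgeR adjusted p = 4.26e-04 and 0.0417), with a median of -0.81 over the list, and with DESeq2 none of the 22 passed, where 15 were lower at an unadjusted edgeR p under 0.05.

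Among 15 genes of fatty acid synthesis and lipid carriers, 2 rose and 3 fell, with a median log2 fold change of -0.18. Apod, the carrier apolipoprotein D, was at 269.7, 775 and 417 CPM (1.04), with 928, 1299 and 1191 CPM in near-empty barcodes. Elovl6, a fatty acid elongase gene, was at 321, 134 and 159.5 CPM (-1.28). Fabp7, a brain-type fatty acid binding protein and an SGC gate gene, was at 183, 54.0 and 20.6 CPM (-2.27, and -2.22 with members that held a Scn7a UMI).

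Genes known from Remak cells or from their contact with axons changed in both directions. Of 26 tested genes 6 rose, 4 fell and the median log2 fold change was 0.01, the same as over all tested genes. The list is wider than adhesion molecules, and Gfap and Ngfr were among the genes that rose. Ncam2, a neural cell adhesion molecule, was at 2095, 1037 and 979.5 CPM (-1.18, SE 0.16, edgeR adjusted p = 1.93e-10). Its paralog Ncam1, a marker of non-myelinating Schwann cells, was at 1816, 1376 and 1392 CPM (-0.52). Cntn1, a contactin, was at 229, 106 and 133 CPM (-1.10), and the synaptic adhesion gene Nrxn3 at 148, 90.3 and 82.6 CPM (-0.90). These 4 genes were lower in both aged libraries than in the adult.

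On the other side, Cadm2 was at 1312, 2454 and 2408 CPM (0.76), Cadm4, a nectin-like molecule on the Schwann side of the axon contact, at 119.6, 264 and 300.2 CPM (1.10), Chl1 at 894, 1689 and 1608 CPM (0.75) and Adam23, a receptor of LGI proteins, at 467, 857 and 861 CPM (0.75). Gfap, the intermediate filament of non-myelinating Schwann cells, was at 1.80, 22.6 and 26.3 CPM, a ratio of 13.2 (3.43 to 112). Cadm2 and Adam23 had log2 fold changes of 0.42 and 0.41 with members that held a Scn7a UMI and did not pass (edgeR adjusted p = 0.275 and 0.378), whereas Ncam2 and Cntn1 did (8.42e-05 and 4.45e-04). Ncam1 did not (-0.32, 0.503). Over the list 3 then rose and 3 fell, and under the rule that asks for 5 UMIs from 3 genes and 4 times the exclusion UMIs none rose and 1 fell. L1cam, which marks Remak cells, was at 148, 175 and 219.6 CPM and did not pass (0.26, edgeR adjusted p = 0.661).

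Of 22 Schwann lineage genes 3 rose and 3 fell, with a median of 0.03. Runx2, a transcription factor that Schwann cells induce after injury, was at 70.1, 212 and 448 CPM (log2 fold change 2.05, SE 0.25, edgeR adjusted p = 4.62e-14). Its UMIs came from 57, 87 and 48 nuclei, with at most 3, 27 and 41 in 1 nucleus. Id4 (92.6, 34.7 and 33.8 CPM), the calcium-binding protein gene S100b (375, 199 and 160.4 CPM) and the Notch target Hes1 (116, 72.5 and 39.4 CPM) had log2 fold changes of -1.56, -1.17 and -1.09. Tead1, a partner of YAP, was at 387, 663 and 666 CPM (0.65). For each gene both aged libraries lay on the same side of the adult, as for nearly all called genes. Sox10 (-0.25, edgeR adjusted p = 0.597) and Cdh19 (0.14, 0.764) did not pass.

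Among 12 tested genes of the repair Schwann cell 5 rose, 1 fell and the median was 0.91, the list sharing Runx2 with the lineage list. DESeq2 called none of the 12 (Runx2 adjusted p = 0.504), and with the strict rule or members thinned to 1000 UMIs 1 rose in each case. Besides Runx2 and Btc, these were Tnc, the matrix protein tenascin-C, at 15.3, 123 and 43.2 CPM (2.41), Nes, the intermediate filament nestin, at 13.5, 45.1 and 37.5 CPM (1.503), and Ngfr, the low-affinity neurotrophin receptor, at 44.9, 106 and 114 CPM (1.15, SE 0.31, edgeR adjusted p = 0.00505). Of the Tnc UMIs in aged library 1, 81 of 152 came from 1 nucleus, and with an upper limit on UMIs per nucleus Tnc did not pass (1.31, edgeR adjusted p = 0.0511). Ngfr had a log2 fold change of 1.01 with members that held a Scn7a UMI and did not pass (edgeR adjusted p = 0.0726), while Runx2, Tnc, Nes and Btc did. Lif, the cytokine leukemia inhibitory factor, fell, at 71.0, 23.4 and 11.3 CPM (-2.02). Gap43, a growth-associated gene, was at 61.1, 69.3 and 58.2 CPM (-0.05, edgeR adjusted p = 0.969). The members of the list that rose were therefore an EGF-family ligand, a transcription factor, a matrix protein, a filament and a receptor, and its cytokine went down.

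In the neuregulin and ErbB pathway 1 of 9 tested genes rose and 2 fell, with a median of -0.11. Erbb3, the neuregulin receptor of Schwann cells, was at 241, 324 and 372 CPM (0.39, edgeR adjusted p = 0.314), and its partner Erbb2 at 24.3, 52.4 and 46.9 CPM (0.91, edgeR adjusted p = 0.181). Egfr, a receptor of betacellulin, was at 16.2, 43.5 and 46.9 CPM (1.33, SE 0.44, edgeR adjusted p = 0.0401), and Erbb4, another receptor of betacellulin and of neuregulins, at 53.9, 23.4 and 16.9 CPM (-1.49). Neither passed with members that held a Scn7a UMI, where Egfr was at a log2 fold change of 1.24 (edgeR adjusted p = 0.126) and Erbb4 at -0.73 (0.582). The neuregulin gene Nrg3 was at 449, 93.5 and 133 CPM (-2.17), and 171 of its 500 adult UMIs came from 1 nucleus. With an upper limit on UMIs per nucleus Nrg3 still fell (-1.20, edgeR adjusted p = 1.11e-05).

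The basal lamina and its receptors had 30 tested genes, of which 6 rose and 1 fell, with a median of 0.28. Col18a1, the basement membrane collagen that yields endostatin, was at 23.4, 143 and 93.8 CPM (log2 fold change 2.25, SE 0.34, edgeR adjusted p = 8.97e-09). Col5a1 was at 38.7, 146 and 178 CPM (1.91), Col5a2 at 312, 675 and 717 CPM (1.02), and Hspg2, the proteoglycan perlecan, at 183, 324 and 413 CPM (0.86). Of the integrins, Itga1 (184, 391 and 347 CPM, 0.88) and Itgb8 (647, 1213 and 1315 CPM, 0.83) rose, and Itga7, a laminin receptor chain, fell (165, 92.7 and 78.8 CPM, -1.06). With members that held a Scn7a UMI 5 rose and 1 fell. The fibroblast collagens Col1a2 (182, 409 and 443 CPM, 1.09) and Col3a1 (102, 247 and 210.2 CPM, 1.05) also rose, among 6 tested fibroblast markers of which 3 were positive and 3 negative (median 0.26), and their part in the collagen results was not tested.

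The myelin list, with 17 genes tested, had 2 higher and 1 lower. Gldn, described above, was among those that rose. Of 9 satellite glia genes none rose and 2 fell, with a median of -0.52, Fabp7 among them. Of 13 neuronal genes none rose and 3 fell, with a median of -0.47. The endothelial and mural list had 1 of 6 lower, and the immune list 1 of 5 lower. Over all tested genes 2.89% rose and 4.08% fell, and 1 or 2 calls in lists this short say little about the lists. DESeq2 called 1 gene of the myelin list and none of the other 4. Subtraction of free RNA was scaled on 9 of the 13 neuronal genes, so what it leaves is no measure of their direction. After it 3 neuronal genes rose, 3 fell and the median was 0.58.

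Transmitter receptors and uptake carriers had 18 tested genes, with 1 higher, 2 lower and a median of -0.10. Slc1a2, a glutamate transporter, was at 16.2, 54.0 and 41.3 CPM (1.46), and did not pass with members that held a Scn7a UMI (1.21, edgeR adjusted p = 0.163). Gria4, a glutamate receptor gene, was at 243, 144 and 122 CPM (-0.98). The immediate early list, with 14 genes tested, had 2 higher and 1 lower. The list of cell cycle arrest and senescence genes had 14 tested and 1 higher, Ccnd1, the cyclin D1 gene, at 36.0, 91.1 and 63.8 CPM (1.02, edgeR adjusted p = 0.0399), which did not pass with members that held a Scn7a UMI (0.84, edgeR adjusted p = 0.25).

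Of 12 noncoding RNAs 9 fell and 1 rose, with a median log2 fold change of -1.19, Bc1 among them. DESeq2 called 4 lower and 1 higher. The SGC and MSC gates each had 7 of 12 called lower with age, with medians of -0.99 and -1.03. In all other kept nuclei the list summed to 65807, 22992 and 25791 CPM, so the fall was not particular to NMSC. Miat was at 103, 28.2 and 28.1 CPM (-2.004) and Malat1 itself had a log2 fold change of -1.89. Pvt1, a long noncoding RNA beside Myc, went the other way, at 26.1, 131 and 141 CPM (2.24, SE 0.33, edgeR adjusted p = 2.56e-09), and its aged levels came from 73 and 35 nuclei.

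The study concerns the endothelin B receptor and connexin 43 in the ganglion, and genes of both families were looked at in the members. None of 8 tested genes passed, with a median of -0.36, and 2 were lower at an unadjusted edgeR p under 0.05, while DESeq2 called none. Ednrb, the endothelin B receptor, was at 116, 98.3 and 99.5 CPM (log2 fold change -0.36, SE 0.26, edgeR adjusted p = 0.541). Gja1, which encodes connexin 43, was at 27.9, 10.5 and 15.01 CPM (-1.33, SE 0.54, edgeR adjusted p = 0.129). Both aged libraries lay below the adult for these genes, but the test did not separate the differences from the spread. The direction of Ednrb turned with members that held a Scn7a UMI (0.18), with a minimum of 2000 genes (0.17) and with the strict rule (0.37), and the list median was 0.37 with the strict rule, so both directions depend on the rule. Ece1, an endothelin-converting enzyme (208, 170.05 and 189.5 CPM), had a log2 fold change of -0.35, Ece2 (27.0, 17.7 and 9.38 CPM) had -0.999, and Ednra, the endothelin A receptor (25.2, 15.3 and 15.01 CPM), had -0.86.

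To ask where ageing of NMSC differed from that of the other glia, the age differences were compared with those of nuclei gated as SGC (2012, 217 and 127 nuclei) and as MSC (549, 516 and 177 nuclei) by an interaction term, with the library as a block. Of 13475 genes tested, 275 (2.04%) differed from SGC, 114 higher with age in NMSC and 161 lower, and 194 (1.44%) differed from MSC, 96 higher and 98 lower. All kept their direction with either aged library alone. With members that held a Scn7a UMI 124 and 91 passed. Of the 161 genes lower against SGC, 109 (67.7%) had a higher adult level in SGC than in NMSC, against 41.1% of all tested genes, and 59 of the 161 were also called with members that held a Scn7a UMI. The 2 comparisons share the NMSC libraries.

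Of the lists, the interferon genes had no call against SGC (edgeR, 3 at an unadjusted p under 0.05) and 1 against MSC (11 at an unadjusted p under 0.05). Their median log2 fold change with age was 1.33 in SGC and 1.16 in MSC beside the 1.27 of NMSC. The cholesterol genes had a median of -0.19 in SGC and -1.72 in MSC beside the -0.82 of NMSC, with 3 of 22 called higher in NMSC than in MSC and 1, Nsdhl, called lower than in SGC (interaction -1.14, edgeR adjusted p = 0.014). The clock genes had a median of 0.30 in SGC, with 4 of 16 called higher with age, and of 0.43 in MSC, with 4 of 17 higher and 1 lower. Of these genes 2 differed from SGC, Dbp (1.83, edgeR adjusted p = 0.0251) and Per1 (1.36, edgeR adjusted p = 0.0315), whose age differences in SGC were 0.22 and -0.20, and none from MSC. When members had to hold a Scn7a UMI, Dbp still passed (2.19, edgeR adjusted p = 0.0453), while Per1 (1.56, 0.0524) and Nsdhl (-1.10, 0.105) did not.

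Among the genes described above, Runx2, Tnc, Ngfr, Tead1, Col5a1 and Col1a2 were called higher with age in NMSC than in SGC, with interactions of 1.49, 2.73, 1.63, 0.83, 1.66 and 1.06. When members had to hold a Scn7a UMI, these stayed at 1.505 and 1.65 for Ngfr and Col5a1 but did not pass (edgeR adjusted p = 0.102 and 0.0903), and the other 4 passed. Runx2 and Tnc rose in the MSC gate too (1.94 and 4.67) and did not differ from it by the test. Ncam2 had interactions of 1.90 against MSC, where it fell by 3.08, and of -0.92 against SGC, where its age difference was -0.29, the latter lost when members had to hold a Scn7a UMI (-0.72, edgeR adjusted p = 0.0573). Gldn rose more than in MSC (4.10, edgeR adjusted p = 1.19e-04), where its age difference was 0.72. Apod, at -0.58 with age in SGC, had an interaction of 1.59.

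Ntng1, Slit2, Adamts5 and Kcnip4 were chosen after their values were seen, and are given with both interactions side by side. Ntng1, an axon guidance gene of the netrin-G family, was at 150.1, 542 and 651 CPM in NMSC (log2 fold change 1.85, edgeR adjusted p = 4.03e-15), and -1.12 and 0.43 in SGC and MSC, with interactions of 2.92 and 1.42 (edgeR adjusted p = 2.09e-08 and 0.00151). Slit2, a guidance ligand, was at 60.2, 225 and 221 CPM (1.76), with interactions of 2.90 and 1.21. Neither Ntng1 nor Slit2 differed from MSC by the test with members that held a Scn7a UMI (edgeR adjusted p = 0.0708 and 0.229), while both still differed from SGC. In the other direction Adamts5, a matrix protease, was at 353, 143 and 78.8 CPM (-1.73), with interactions of -1.71 and -1.60. Kcnip4, a potassium channel partner, was at 876, 151 and 163 CPM (-2.62), with interactions of -1.28 and -1.90. However, 563 of its 975 adult UMIs came from 1 nucleus, and without nuclei above the upper limit on UMIs its log2 fold change in NMSC was -1.32.

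**Figure D5:**
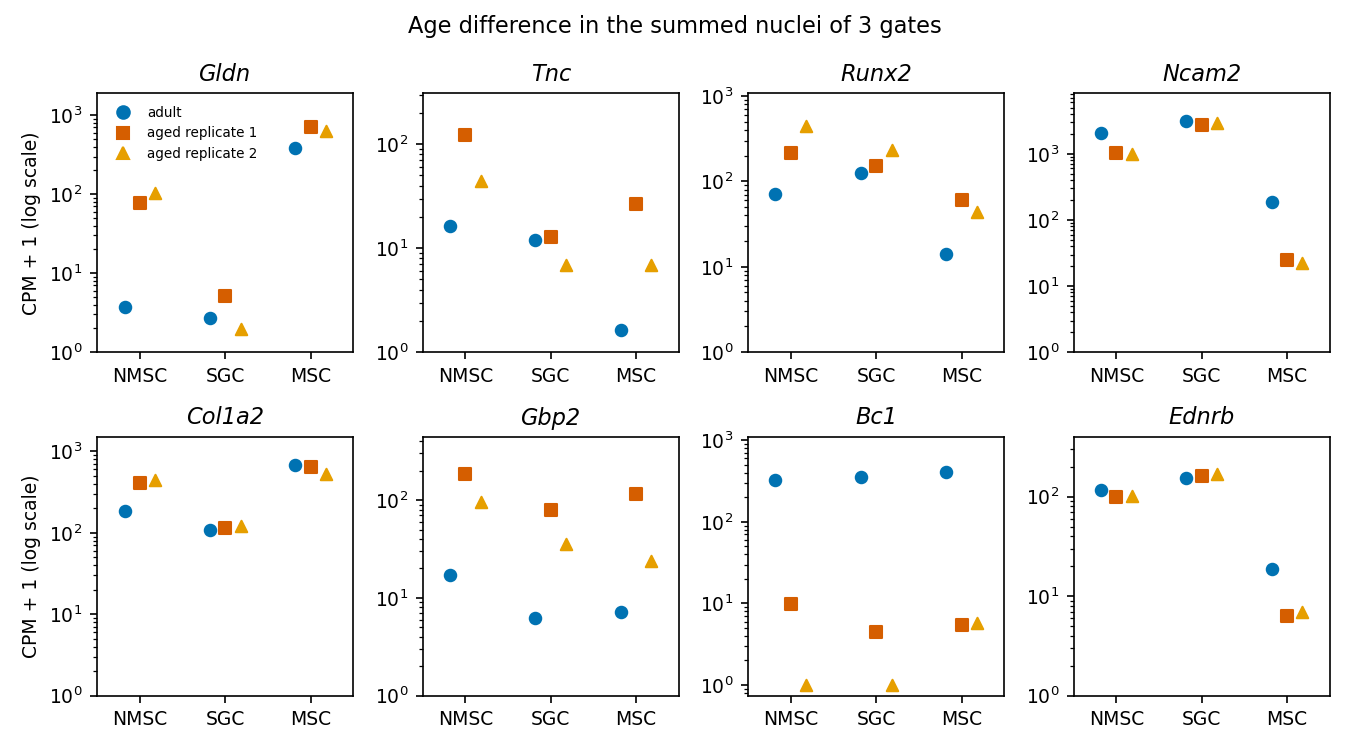
Levels of 8 genes (CPM + 1, log axes) in the summed nuclei of the NMSC, SGC and MSC gates, 1 point per library. Gbp2 is higher and Bc1 lower in the aged libraries in all 3 gates, with log2 fold changes of 3.04, 3.39 and 3.58 for Gbp2 and -5.85, -7.41 and -6.54 for Bc1.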

How the data were processed

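Nuclei from frozen ganglia were profiled with a 3' kit based on particle-templated emulsions (PIP-seq), and the authors aligned reads and counted transcripts with Pipseeker on mm10, as their methods and the submitters' processing notes state. The deposited files hold raw UMI counts per gene and barcode for all barcodes of 1 library each, unfiltered, and the gene annotation and use of strand are not given in the sources used here. Of 32227 genes, 32098 matched GENCODE M21 by gene identifier.

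Kept barcodes held more than 1000 genes, as in the study, which states slightly more nuclei at this step than were found here, and which then removed low-quality and doublet clusters, a step not repeated here. No doublet caller was run, and the exclusion genes stand in for one only in part. The deposited counts of the members were summed per library and tested with edgeR 4.0.16 in R 4.3.3 (TMM, filterByExpr, quasi-likelihood, Benjamini-Hochberg at 0.05). Rule genes entered the fit and were left out of the counts, as were the genes of both other gates in the interactions, which were fitted on 9 sums with the library as a block. With 1 adult library no test has an adult spread. DESeq2 1.42.0, other filters and scalings, other gates, thinning and subtraction of free RNA were alternatives. The edgeR steps were tested on simulated data. Intervals are exact (Clopper-Pearson, 95%) and cover counting error only. The members and gene lists were chosen with earlier results of these data known.

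Named genes were the 14 rule genes, the 8 largest rises and 8 largest falls among called genes of 50 or more UMIs whose aged libraries lay on 1 side of the adult, up to 3 called genes of each list by size, the tested endothelin genes and Gja1, 10 genes of each of 3 descriptive orders, and the 3 largest interactions in each direction. Other list genes in the text were chosen after their values were seen. No column of another series was present. A few named genes are not reported here.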

Additional observations from a re-analysis of the deposited data

Results flagged for a closer look

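The genes below were noted because their age difference in NMSC differed from that in another glial gate by the interaction term (edgeR, Benjamini-Hochberg adjusted), taking the 3 largest in each direction. Fitted values of genes with no or few UMIs in a group depend on the prior count and are no bounds. When members had to hold a Scn7a UMI, Nr1h4, F930017D23Rik, Pkp2 and St8sia2 did not pass against SGC (adjusted p = 0.0861 to 0.146) and Lrrc55os could not be fitted, while Bicdl1 and the 6 genes given against MSC passed.

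Against SGC, the age difference was higher in NMSC by 6.113 on the log2 scale for Nr1h4 (adjusted p = 0.00827), by 7.06 for F930017D23Rik (0.0125) and by 6.71 for Pkp2 (0.0317), a desmosome gene. It was lower for Lrrc55os, with an interaction of -11.66 (0.00379), for Bicdl1, a dynein adaptor gene, with -3.81 (1.95e-04), and for the sialyltransferase gene St8sia2, with -3.56 (0.0259). Lrrc55os had 34, 0 and 0 UMIs in NMSC, so its level was at least 18.1-fold lower in the aged libraries against a floor of 3 counts over both.

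Against MSC, the age difference was higher in NMSC by 5.28 for Sult5a1 (adjusted p = 0.00183), by 6.43 for Ccbe1 (0.00355) and by 5.26 for St18 (0.00254). It was lower for Shh, the hedgehog ligand, with -5.80 (0.0052), for Lef1, a partner of beta-catenin, with -3.65 (4.35e-04), and for Casp12 with -3.37 (0.00173). Shh was at 5.39, 2.42 and 5.63 CPM in NMSC and at 1.85, 71.5 and 57.1 CPM in MSC, so both aged libraries lay above the adult in MSC, while they lay on both sides of it in NMSC. Casp12 was at 133, 135 and 116 CPM in NMSC and at 2.47, 21.8 and 31.0 CPM in MSC. St18 had 3, 34 and 1 UMIs in NMSC, so that 1 aged library carries its value, and it was at 47.5, 8.44 and 5.95 CPM in MSC.

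Barcodes of 300 to 1000 genes, which entered no comparison, also met the rule in 124 cases in the adult library, 105 in aged library 1 and 56 in aged library 2, that is in 0.406%, 1.09% and 1.10% of such barcodes.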

How the results depend on the processing

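No paired analysis was possible because the adult group is 1 library and the groups share only replicate number 1. Of 1131 values of 73 named genes under the alternatives, 868 kept their direction and, where the fit gave a test, their side of the threshold, 250 kept the direction but no longer passed, and 13 turned direction. The share ratio of 1.56 was 3.48 with a minimum of 2000 genes, 1.59 with an upper limit on UMIs, 2.82 with the strict rule, 1.27 with no exclusion UMIs allowed and 1.84 with the rule on thinned UMIs. With a Scn7a UMI it was 2.30 and with no UMI of the SGC gate genes 2.78, both rules added after the data were seen, and it was 1.55 to 1.58 without one aged library. The 847 age calls became 356 with 2000 genes, 263 with the strict rule, 61 with no exclusion UMIs, 562 with the rule on thinned UMIs, 342 with members thinned to 1000 UMIs, 430 with no UMI of the SGC gate genes and 108 with DESeq2, and fewer nuclei or UMIs entered in the first 6 of these. The 275 calls against SGC became 61 when thinned, 83 with the strict rule and 124 with a Scn7a UMI, and the 194 against MSC became 61, 97 and 91. With free RNA subtracted 47.4% of the age calls were higher, against 41.4% otherwise. Directions turned for Prph when thinned (0.13), Col3a1 (-0.31) and Ednra (0.35) with no exclusion UMIs, Ednrb with 2000 genes (0.17), the strict rule (0.37) and a Scn7a UMI (0.18), and Ece1 with 2000 genes (0.0266) and the rule on thinned UMIs (0.0872). They also turned for St18 without aged library 1 (-0.59, and 3.16 without aged library 2), and for Casp12 with 2000 genes (0.58), the rule on thinned UMIs (0.41), a Scn7a UMI (0.21) and no UMI of the SGC gate genes (0.26). Beyond the fewer nuclei, the cause was not tested. Without an aged library no residual degree of freedom remained, so these fits gave values without a test.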
